A study of Rattus norvegicus with 8 samples.

Results

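The MS4A family was represented by 18 array probes for 15 genes, each a spot whose gene name in the files begins with Ms4a. They were 15 of the 36074 gene names on the array, and 15632 genes were bright enough to be tested. RNA came from NR8383 cells, an alveolar macrophage line established by lavage of a normal rat's lung. At passage 200 (P200) there were 4 biological replicates, and at passage 20 (P20) there were 4. Both groups were kept in DMEM with fetal bovine serum, L-glutamine, penicillin, streptomycin and amphotericin B, and both had been seeded 48 h earlier with no further agent. Each replicate was hybridised to 1 single-colour Agilent array, and the labels name no second line, no independent lineage for the passages and no source of the replicates beyond the term biological. All 8 arrays lay on 1 slide in 2 rows and were read in 1 scan.

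MS4A proteins cross the membrane with several helices, keep both ends in the cytoplasm, and mostly act beside receptors as modulators of calcium entry and signalling. Their genes lie side by side in a cluster whose members differ by cell type. MS4A1 is CD20 of B cells, MS4A2 is the beta chain of the high-affinity IgE receptor of mast cells and basophils, and MS4A4A, MS4A6A and MS4A7 are known from human macrophages and microglia. The MS4A4 and MS4A6 branches were duplicated in rodents, so that rats carry several close paralogs.

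On the array's positions (rn4, as the files give them) the 18 probes spanned chr1:213462618-214319875, or 857258 bp. A further 17 probes in or next to the same cluster carry another name but an Ms4a gene in their description or in RefSeq, and they are described beside the members. The probes that carried the difference between the passages report Ms4a4a, Ms4a6b, Ms4a6bl (Ms4a6bl1 in RefSeq) and Ms4a6c. The first of them below crosses an exon junction in Ms4a4a (chr1:213948281-213953512) and the second crosses one in Ms4a6b (chr1:214162714-214164489), so each position range includes an intron. The third is Ms4a6bl probe 2 (chr1:214211404-214211463).
Ms4a4a junction probe: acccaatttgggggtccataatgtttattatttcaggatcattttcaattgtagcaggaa
Ms4a6b junction probe: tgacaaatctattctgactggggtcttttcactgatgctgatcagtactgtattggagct
Ms4a6bl probe 2: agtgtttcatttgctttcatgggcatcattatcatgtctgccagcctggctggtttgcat

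Paralogs were not always separable. Ms4a6bl probe 3 (chr1:214216575-214216634) and a probe described by its similarity to mouse Ms4a6c (chr1:214048274-214048333) shared an unbroken run of 39 bases, in capitals, and 54 of 59 aligned bases.
Ms4a6bl probe 3: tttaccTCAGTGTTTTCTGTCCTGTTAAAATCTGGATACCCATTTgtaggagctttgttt
Ms4a6c-like probe: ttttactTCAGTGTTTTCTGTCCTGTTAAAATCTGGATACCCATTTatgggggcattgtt
Among all 595 pairs of the 35 probes, 3 shared a run of 20 bases or more. The other 2 pairs were pairs of probes for a single gene, and the longest run among the remaining pairs was 13 bases. Ms4a6bl probe 2 is listed by the array's design against 3 Ensembl transcripts, 2 of which are those of the Ms4a6b and Ms4a6c probes, and probe 3 against 2. Signals of Ms4a6bl, Ms4a6b and Ms4a6c may therefore include one another's RNA.

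Most of the family was not detected at either passage. Of the 18 probes, 5 were well above background on all 8 arrays, 1 only on the P200 arrays, 2 on some arrays, and 10 on none. Each probe is a single spot, and its intensity is the background-subtracted signal in arbitrary units. It is not scaled between arrays and cannot be compared between probes. The 10 undetected probes read 3.41 to 24.6, and in none of them were the groups separated. They include probes for Ms4a1 (CD20), with 6.11, 8.53, 6.17 and 4.87 in P200 cells and 4.13, 4.50, 6.79 and 22.9 in P20 cells. Ms4a7, a macrophage gene in humans, was also below background throughout, with 6.79, 7.33, 7.64 and 4.02 in P200 cells and 3.41, 4.96, 10.6 and 9.07 in P20 cells. The others undetected were Ms4a18, Ms4a8, Ms4a12 (a colon epithelial gene in humans), Ms4a5, Ms4a14, Ms4a4c, the only member probe for Ms4a6b, and 1 of the 2 probes for Ms4a4a. Values at this level have no order, and no fold is given for them.

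**Figure D1:**
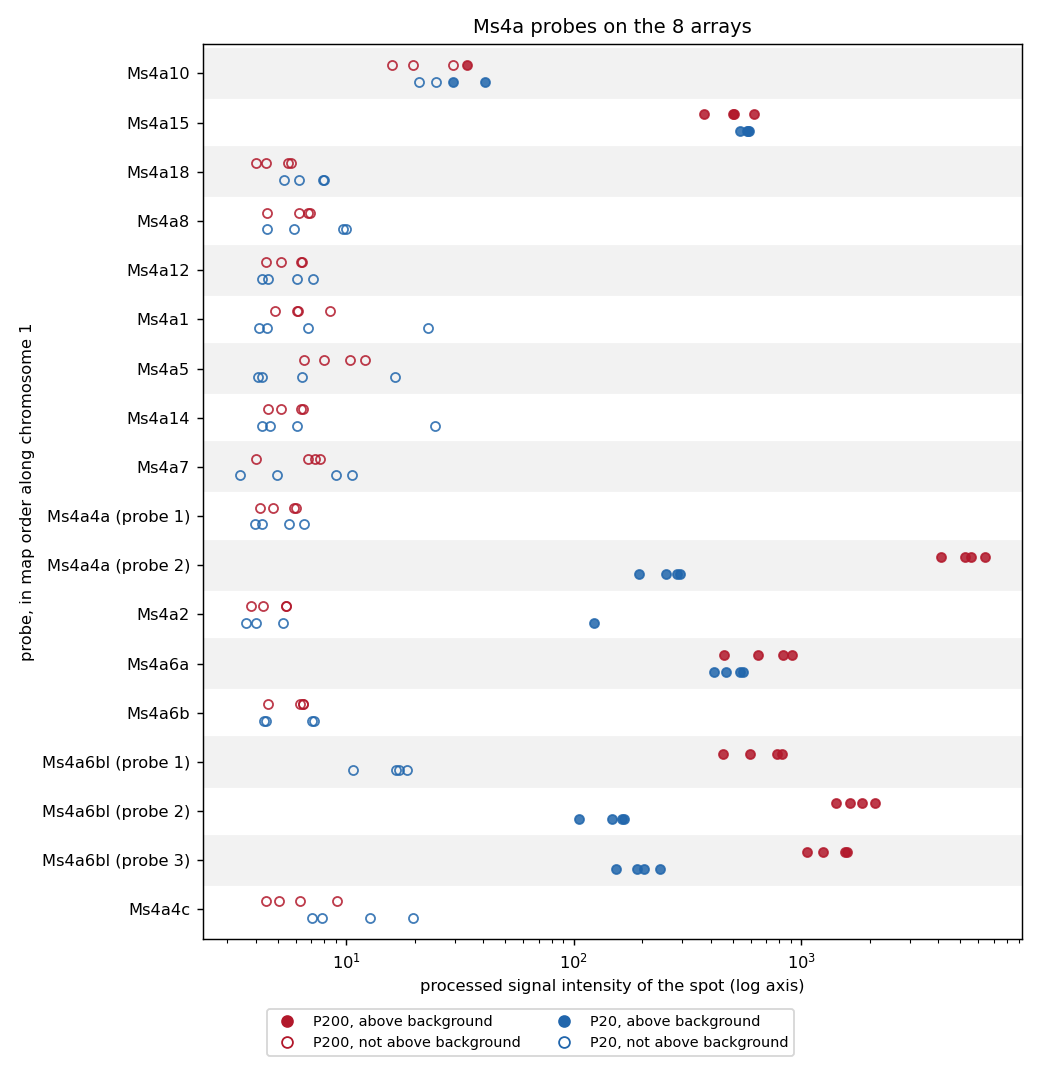
Processed signal intensity (log axis) of the 18 Ms4a probes in map order, 1 point per array, with P200 above P20 in each row and filled points where the spot was well above background. The 2nd probe of Ms4a4a and the 3 probes of Ms4a6bl have P200 points far to the right of the P20 points, and 10 rows have hollow points only.

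Ms4a4a, a macrophage surface gene in humans that is raised by IL-4 and glucocorticoids, was far brighter at P200 than at P20. Its 2nd probe (chr1:213959870-213959929) read 5554, 5215, 6420.2 and 4109 in P200 cells, against 294, 283, 193 and 255 in P20 cells. All 4 P200 arrays stood far above all 4 P20 arrays, and no value lay between. After division by each array's 75th percentile, the log2 level was 1.91 ± 0.23 in P200 cells and -2.62 ± 0.14 in P20 cells (SD, n = 4 each), a difference of 4.52 ± 0.13 (SE) or 23.0-fold. The rows of the slide gave 4.56 (3 P200 arrays and 1 P20 array) and 4.21 (1 and 3). The members were chosen by name, but the family was selected on this same difference in intensity between P200 and P20, so its values are a description and carry no test. By size this was the 5th largest increase among the 15632 genes, of which 0.224% were over 8-fold higher at P200. Probes under a transcript name count there as separate genes, and a further Ms4a4a probe, with a log2 difference of 4.81, ranked above it.

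Both further probes described as Ms4a4a were also higher on every P200 array. The junction probe shown above read 813, 891, 1007 and 695 in P200 cells, against 36.6, 30.6, 16.8 and 20.5 in P20 cells, where 2 of the 4 arrays were well above background. The other (chr1:213959621-213959680), next to the 2nd member probe, read 3739, 4093, 4455 and 2938 in P200 cells, against 145, 173, 114 and 169 in P20 cells, a log2 difference of 4.81 ± 0.18 (SE) or 28.0-fold. So 3 of 4 Ms4a4a probes separated the passages. The 4th, the undetected member (chr1:213936251-213936310), lay before the other 3 on the map, with 6.03, 4.16, 5.91 and 4.75 in P200 cells and 3.97, 4.29, 5.63 and 6.51 in P20 cells. What transcript it matches was not analysed here.

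Ms4a6bl, one of the rodent paralogs of the MS4A6 branch, was higher at P200 on each of its 3 probes. Probe 1 (chr1:214208073-214208132) read 781, 592, 819 and 454 in P200 cells, against 18.5, 10.7, 17.0 and 16.6 in P20 cells, where no array was well above background. With the P20 arrays raised to their dimmest spot that was well above background, unless the probe itself was brighter, P200 was 32.0-fold higher. This is not a strict lower limit. On P20 replicate 1 the probe read 18.5, above that array's dimmest such spot (17.1), and was still not well above background. The log2 difference of this probe was 3.08 with normexp background correction and 3.58 with series matrix values, against 5.53 on the processed signal. The 32.0-fold figure holds for the processed signal alone. Probe 2 read 1839, 1634, 2116 and 1419 in P200 cells, against 166, 147, 105 and 163 in P20 cells, 13.4-fold higher at P200. Probe 3 read 1548, 1242, 1591 and 1062 in P200 cells, against 239.9, 191, 154 and 203 in P20 cells, 7.64-fold higher at P200. None of the 3 probes had overlapping groups. The size of the difference depended on the probe, with log2 differences of 3.75 ± 0.15 for probe 2 and 2.93 ± 0.11 for probe 3 (SE). The probe with the smallest difference is the one that shares 39 bases with the Ms4a6c-like probe, and whether that sharing sets its P20 signal was not tested.

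The Ms4a6c-like probe read 702, 864, 1079.9 and 715 in P200 cells, against 248, 234, 188 and 228 in P20 cells, a log2 difference of 2.03 ± 0.22 (SE). A probe described as Ms4a6c itself (chr1:214304098-214304157) read 2012, 1741, 2217 and 1614 in P200 cells, against 166, 135, 126 and 163 in P20 cells, 14.2-fold higher at P200. The Ms4a6b junction probe was well above background on the P200 arrays alone, with 87.1, 78.2, 96.5 and 44.5 in P200 cells and 4.54, 3.87, 5.00 and 5.76 in P20 cells. Its P20 spots give no measured level. With the P20 arrays raised in the same way it was 3.73-fold higher at P200, again not a strict limit. The member probe for Ms4a6b (chr1:214173179-214173238) was undetected, with 6.46, 4.54, 6.46 and 6.24 in P200 cells and 4.38, 4.46, 7.24 and 7.10 in P20 cells.

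The Ms4a6b member probe has a counterpart in the promoter table of RefSeq. Its 60 bases, in capitals below, stand 103 to 44 bases before one of the 2 annotated starts of Ms4a6b (GRCr8 chr1:217714816-217715065, plus strand), downstream of the earlier start. A transcript from the later start would not contain them. Of the 35 family probes, 1 was found in the 29 promoter windows of Ms4a genes.
Ms4a6b promoter: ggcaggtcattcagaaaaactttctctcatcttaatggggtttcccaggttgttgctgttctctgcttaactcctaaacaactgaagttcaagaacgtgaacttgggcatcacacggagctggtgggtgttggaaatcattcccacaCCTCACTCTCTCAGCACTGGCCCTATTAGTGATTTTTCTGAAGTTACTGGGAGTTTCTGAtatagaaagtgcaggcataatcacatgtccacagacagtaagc

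Ms4a6a, the member of the branch known from human microglia, was well above background on all 8 arrays and differed far less. It read 906, 644, 830 and 456 in P200 cells, against 557, 539, 412 and 467 in P20 cells. These intensities overlap, but after division by the 75th percentile all 4 P200 arrays were above all 4 P20 arrays, with log2 levels of -1.03 ± 0.08 in P200 cells and -1.66 ± 0.08 in P20 cells (SD, n = 4 each). The log2 difference was 0.63 ± 0.06 (SE), or 1.55-fold, the 436th largest increase among the genes tested.

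Ms4a15, known from lung epithelium and from calcium handling, was the 4th gene measured on all 8 arrays. It read 621, 502, 504 and 374 in P200 cells, against 587, 575, 538 and 583 in P20 cells, and its scaled log2 values overlapped, with a difference of -0.07 ± 0.08 (SE). Ms4a10 was well above background on 1 P200 array and 2 P20 arrays, with 15.9, 19.6, 29.5 and 33.9 in P200 cells and 20.9, 29.5, 40.6 and 24.7 in P20 cells, and its groups overlapped. Ms4a2, the IgE receptor beta chain, was below background on 7 arrays, with 5.44, 3.80, 5.43 and 4.32 in P200 cells and 3.64, 4.01 and 5.26 in 3 of the P20 arrays. The remaining P20 array, replicate 4, read 123 and was well above background there.

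Over the 18 member probes, 5 had groups that did not overlap, and in all 5 P200 was higher. Among the genes tested, 9.67% had all 4 P200 arrays above all 4 P20 arrays, and 1.42% were over 2-fold higher. The choice of the family used this same contrast, so nothing is read from its share. Of the 15 genes, 4 passed the filter on low values (Ms4a4a, Ms4a6bl, Ms4a6a and Ms4a15) and 11 did not. In a culture measured in bulk, a larger share of cells with a transcript and more of it per cell cannot be told apart.

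Along the array's rn4 map, the raised probes lay together towards the far end of the cluster. Of the 35 family probes, 9 were well above background on all P200 arrays and over 2-fold higher there, 4 of them members and 5 not. They stretched from the Ms4a4a junction probe (chr1:213948281-213953512) to the Ms4a6c probe (chr1:214304098-214304157). Within that stretch the probes for Ms4a6bl2, an Ms4a4c-like gene and Ms4a6b's member probe were not above background on any array, Ms4a2 was above it on 1 P20 array, and Ms4a6a differed 1.55-fold. On the near side of it, Ms4a15 and a probe for Ms4a20 (198, 174, 241 and 182 in P200 cells, 178, 194, 181 and 159 in P20 cells) were measured on all 8 arrays and overlapped between the passages. The other probes for Ms4a20 read 4.13 to 14.3 and were not above background on any array. Ms4a1, Ms4a5, Ms4a8, Ms4a12, Ms4a14, Ms4a18 and Ms4a7 lie there too, and were undetected. In GRCr8, used for the promoters below, the order differs. There the undetected Ms4a4c lies between Ms4a4a and Ms4a6bl1, and Ms4a6a lies beyond Ms4a6b.

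**Figure D2:**
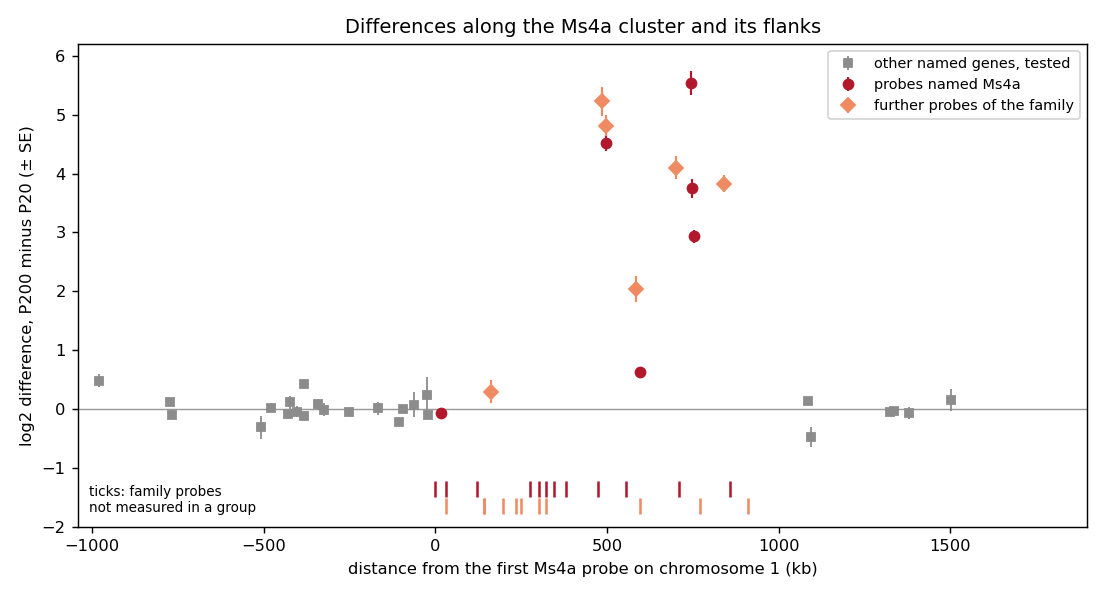
Log2 difference (P200 minus P20, ± SE) against distance in kb from the first Ms4a probe, for probes well above background on all arrays of at least 1 group. Circles are member probes, diamonds the further family probes and squares the 25 other named genes tested, and ticks mark family probes that were not measured. The 9 raised probes stand between about the middle and the far end of the cluster, while the squares on both flanks stay within 0.5 of zero.

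Genes next to the cluster did not share the size of its differences. Of 52 named genes within 1 Mb of the outermost member probes, 25 were measured. In the limma fit over all genes (adjusted p under 0.05), 2 of the 25 rose at P200, 0 fell and 23 did not pass. At an unadjusted limma p under 0.05, 2 were lower. Over all genes 11.5% passed, 5.85% higher and 5.61% lower. The neighbours' median log2 difference was -0.01, against 0.00 over all genes tested. The 2 that rose were Tkfc, a triokinase that phosphorylates dihydroxyacetone (0.42 ± 0.07, limma adjusted p = 0.0047), and Rab3il1, an exchange factor for Rab proteins (0.48 ± 0.11, limma adjusted p = 0.028). Rab3il1 lost its call in 6 of 19 alternative settings and Tkfc in 1. The measured named genes nearest to the cluster were Ccdc86 on one side, at -0.10 ± 0.06 (limma adjusted p = 0.38), and Mrpl16 on the other, at 0.14 ± 0.06 (limma adjusted p = 0.22). Inside the cluster, 9 probes not described as Ms4a fall outside the named genes, and 1 was well above background on all 8 arrays. That probe, for LOC100910973 (chr1:213557820-213557879), had a log2 difference of -0.73 (limma adjusted p = 0.12).

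The promoters of the raised genes were compared because the genes differed together. RefSeq's GRCr8 table held promoter windows for 12 of the 15 members, and the 250 bases before each start were read. The window of Ms4a6bl1 (chr1:217668076-217668325, plus strand) and that of Ms4a6a (chr1:217839574-217839823, minus strand) share 20 bases, in capitals, that begin 55 and 52 bases before the start. The window of Ms4a4a (chr1:217495454-217495703, plus strand) lacks them.
Ms4a4a promoter: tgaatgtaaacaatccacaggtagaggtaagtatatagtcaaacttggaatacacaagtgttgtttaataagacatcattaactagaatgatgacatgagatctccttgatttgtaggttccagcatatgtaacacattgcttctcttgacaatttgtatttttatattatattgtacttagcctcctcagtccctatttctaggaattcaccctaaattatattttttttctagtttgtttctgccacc
Ms4a6bl1 promoter: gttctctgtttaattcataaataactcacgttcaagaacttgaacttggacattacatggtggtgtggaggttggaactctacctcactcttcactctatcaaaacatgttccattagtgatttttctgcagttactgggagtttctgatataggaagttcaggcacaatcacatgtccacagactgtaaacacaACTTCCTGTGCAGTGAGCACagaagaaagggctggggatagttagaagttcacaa
Ms4a6a promoter: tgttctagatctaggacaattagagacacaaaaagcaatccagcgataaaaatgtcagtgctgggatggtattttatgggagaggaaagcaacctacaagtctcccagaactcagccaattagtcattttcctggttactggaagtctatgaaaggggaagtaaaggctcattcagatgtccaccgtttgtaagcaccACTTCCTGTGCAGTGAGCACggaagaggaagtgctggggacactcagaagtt
Ms4a6bl1, whose probes differed 7.64-fold and more, and Ms4a6a, which differed 1.55-fold, thus share a stretch next to the start. Longer runs occurred elsewhere in the family: 24 bases between Ms4a6bl1 and Ms4a6b, and 25 between Ms4a4c, which was undetected, and Ms4a4cl1. Ms4a6c shared 20 bases with Ms4a6b and 18 with Ms4a6bl1. Among 375 pairs of Ms4a promoter windows of different genes the median longest shared run was 8 bases. No family probe carries the name Ms4a4cl1, and whether shared runs go with the rise was not tested. The shared run holds CTTCCT, the reverse complement of AGGAAG, a core of binding sites of the ETS family to which the macrophage factor PU.1 belongs. On either strand, AGGAAG stood in 6 of the 12 members and in 29.5% of all 33469 windows of that length. GAGGAA, which can overlap it, stood in 5 of 12 members and 23.3% of all windows. Ms4a4a and each window of Ms4a6b had neither, and Ms4a6bl1 had AGGAAG but not GAGGAA. The members with GAGGAA were Ms4a12, Ms4a14 and Ms4a4c, which were undetected, Ms4a15, whose groups overlapped, and Ms4a6a, which differed 1.55-fold. Whether AGGAAG or GAGGAA goes with the rise was not tested. AGAACA, a glucocorticoid receptor half-site, stood in 4 of 12 members and 17.5% of windows, TGANTCA (AP-1) in 1 and 6.34%, CACGTG (E-box) in 0 and 5.59%, and TTCCNGGAA (STAT) in 0 and 1.07%. These are matches of letters in a short window and not shown binding sites.

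Lists of MS4A partners and related genes were then taken from the fit over all genes. Among 14 measured macrophage partners and tetraspanins, 5 rose at P200, 0 fell and 9 did not pass, with a median log2 difference of 0.17, where 5.85% of all genes tested rose and 5.61% fell. At an unadjusted limma p under 0.05, 0 were lower and 6 higher. The list was chosen with earlier results of these data known, so nothing is read from its share. Tmem176a, which encodes a relative of the family with the same membrane topology, had scaled log2 levels of -2.07, -1.64, -1.39 and -1.37 in P200 cells, against -3.38, -3.08, -3.44 and -3.22 in P20 cells. Every P200 array was above every P20 array, and Tmem176a rose by 1.66 ± 0.16 (3.17-fold, limma adjusted p = 0.000215) and passed in each of the 19 alternatives. Tmem176b, its neighbour and partner, had 2.12, 2.50, 2.60 and 2.66 in P200 cells, against 1.76, 1.86, 1.72 and 1.88 in P20 cells. It rose by 0.67 ± 0.12 (1.59-fold, limma adjusted p = 0.0069), with its call lost in 1 alternative. The tetraspanins Cd9 (0.41 ± 0.10, limma adjusted p = 0.029), Cd81 (0.33 ± 0.09, limma adjusted p = 0.044) and Cd82 (0.28 ± 0.08, limma adjusted p = 0.047) also passed, but lost their calls in 11, 12 and 14 of 19 alternatives. Trem2, the microglial lipid receptor, and Clec7a (dectin-1), which human MS4A4A joins at the membrane, stood at -0.02 ± 0.11 and 0.01 ± 0.07 (limma adjusted p = 0.93 and 0.96).

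Of 13 measured genes of IgE receptor and ITAM signalling, 1 was higher and 1 lower at P200 past the threshold. The other 11 did not pass, and the list's median was -0.05. With 11.5% of all genes tested past the threshold, 2 of 13 is near that background. Lat2, an adaptor downstream of Fc receptors, fell by 1.05 ± 0.13 on the log2 scale (limma adjusted p = 0.00089) and was well above background on 1 of 4 P200 arrays and on all 4 P20 arrays. The other 3 P200 spots were not above background, so the size of its fall is uncertain. Lat2 lost its call in 2 of 18 alternatives, with normexp, where its log2 difference was -0.35, and with series matrix values (limma adjusted p = 0.086). Plcg1, phospholipase C gamma, rose by 0.37 ± 0.10 (limma adjusted p = 0.046) and lost its call in 14 of 19 alternatives. Fcer1a, the IgE-binding alpha chain that pairs with Ms4a2, was not above background on any array. Fcer1g, the shared gamma chain, was measured on all 8 arrays and stood at -0.20 ± 0.08 (limma adjusted p = 0.19).

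Of 13 measured glucocorticoid and IL-4 response genes, 11 did not pass, 1 was past the threshold in each direction, and the median was 0.00. This too is near the 11.5% of all genes tested that passed. Nr3c1, the glucocorticoid receptor, fell by 0.67 ± 0.10 on the log2 scale (limma adjusted p = 0.0027) and passed in each alternative. Klf4, a factor of alternative macrophage activation, rose by 0.43 ± 0.08 (limma adjusted p = 0.012), with its call lost in 2 alternatives. Mrc1, the mannose receptor, had a difference of 0.51 ± 0.17 that did not pass (limma adjusted p = 0.10).

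**Figure D3:**
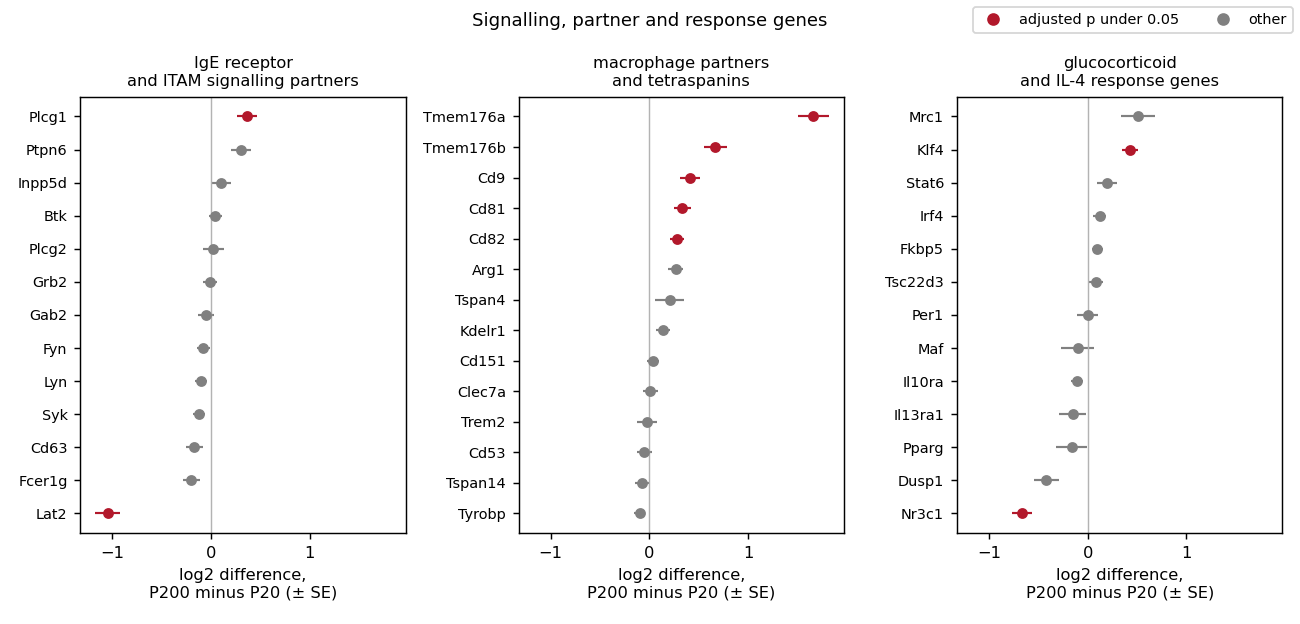
Log2 difference (P200 minus P20, ± SE) of the measured genes of 3 lists, with red points at a limma adjusted p under 0.05. Tmem176a and Tmem176b lie furthest right in their list, Lat2 and Nr3c1 furthest left in theirs, and most of the other genes stand within 0.5 of zero.

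Of all genes tested, the 5 whose array-by-array profile lay nearest to Ms4a4a were ranked by the root mean square difference of centred log2 values over 8 arrays. Each profile was centred on its mean over both groups, so the ranking favours genes with a P200 to P20 difference of similar size. The family was selected on that contrast, and shared variation between replicates was not tested. They were Smoc1 (0.17), a secreted calcium-binding matrix protein, the further Ms4a4a probe (0.19), Cox7b2 (0.19), a cytochrome c oxidase subunit, Fbxl16 (0.32), an F-box protein, and the Ms4a6b junction probe (0.37). Fbxl16 and the Ms4a6b probe were not above background on any P20 array, so their P20 values have no order. Smoc1 and Cox7b2 lie on chromosomes 6 and 14. Their log2 differences were 4.65 ± 0.08 and 4.77 ± 0.11, and that of the further Ms4a4a probe is given above. Ms4a6bl, through probe 3, ranked 30th at 0.80. Over the 9 raised family probes, P200 replicate 1 was the lowest P200 array for 8, with deviations of -0.14 to -0.65 from the P200 mean on the log2 scale. It was also the only P200 array in row 2 of the slide, so the replicate and the slide row cannot be told apart.

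**Figure D4:**
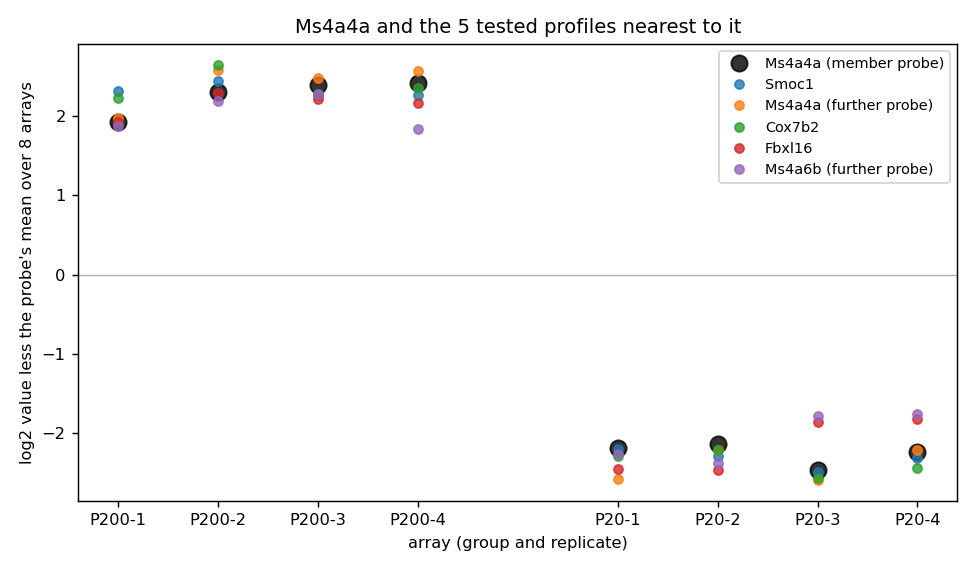
Log2 value less the probe's own mean over 8 arrays, for Ms4a4a (large black points) and the 5 nearest profiles, by array. The P200 arrays lie near 2 above and the P20 arrays near 2 below the mean for all 6 profiles.

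The label of the cells was checked against markers. Of 15 macrophage markers on the array, 9 (Csf1r, Cd68, Itgam, Mertk, Spi1, Lyz2, Cd14, Mrc1 and Siglec1) were well above background on all 8 arrays and 5 (Adgre1, C1qa, C1qb, C1qc and Cd163) on none. Of 9 B-cell markers 4 were above on all arrays (Pax5, Ebf1, Fcrla and Cd22), and Blk, Cr2 and Bank1 were above on none, with summed intensities of 12840.4 to 26094 in P200 cells and 13515 to 16864 in P20 cells. Of 11 mast cell and basophil markers 2 were above on all arrays (Hdc and Slc18a2) and 4 on none (Kit, Fcer1a, Tpsab1 and Cma1), with sums of 283 to 402 in P200 cells and 287 to 397 in P20 cells. Of 8 T-cell markers 2 (Cd3d and Lck) were above on all arrays and 5 on none, with sums of 236 to 358 in P200 cells and 286 to 505 in P20 cells. The sums add unscaled signals of different probes, and those of the B-cell markers came mostly from Fcrla and Cd22. The part of other cell types in the family's values was not tested. Kit, a defining gene of mast cells, was thus not above background in either group, nor was Ms4a1, and Ms4a2 was above it on 1 array. The array's 75th percentile ran from 979 to 1869 in P200 cells and from 1360 to 1717 in P20 cells, and 51.0% to 54.5% of spots were well above background.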

How the data were processed

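The deposited scanner files hold linear intensity for each spot (the processed signal, besides raw and local background columns). Agilent Feature Extraction 11.0.1.1 produced them, per the submitters' processing notes. Per the file headers, the processed signal is background-subtracted and is a surrogate value where a spot is too close to background (57 of 144 member spots). The deposited series matrix holds unscaled intensity, equal to the raw spot medians, with its P200 columns numbered otherwise than the scanner files but in the same group.

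From these, log2 of the processed signal was reduced by each array's 75th percentile over non-control spots, spots of a probe were averaged, and the brightest probe stood for a gene in tests. A gene was tested if well above background on all 4 arrays of at least 1 group, with limma 3.58.1 in R 4.3.3 (lmFit, eBayes, two-sided, Benjamini-Hochberg over 15632 genes, adjusted p under 0.05). Standard errors of family probes come from their own 8 values and those of tested genes from limma. Depth does not apply to arrays; 4 arrays per group limit the precision. On data simulated for this comparison with 15632 genes, the limma step recovered 48%, 82%, 96% and 100% of genes changed by 0.5, 1, 2 and 4 on the log2 scale, with 7 false calls.

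RefSeq names were matched for 12 of 15 members in the GRCr8 promoter table. The members and the gene lists were chosen with earlier results of these data known, and the search for shared stretches between probes and promoters was added after values had been seen. The genes named are all members, the further family probes, up to 4 called genes of each list with the largest change, fixed partners, and the 5 nearest profiles. Cd82, Mrc1, Ccdc86 and Mrpl16 were added after their values were seen. Alternatives covered scaling, background correction, the filter, several probes per gene, slide row, replicate number and each array left out.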

Additional observations from a re-analysis of the deposited data

Results flagged for a closer look

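The probe for Ms4a2, the beta chain of the IgE receptor, read 3.80 to 5.44 on the P200 arrays. It read 123 on P20 replicate 4 against 3.64 to 5.26 on the other 3 P20 arrays, a gap of 0.834 of the group's whole log2 range, past Dixon's critical value for 4 samples. Of 36 groups examined 1 was past that value, and chance takes about 5% past it. The spot's median before subtraction was 175.5 with a local background of 35, and it was not marked as an outlier. On the same array Cd3e, a T-cell gene, read 187, against 4.58, 5.02 and 10.3 on the other P20 arrays. The T-cell markers Cd3g, Cd2, Cd5, Zap70 and Cd8a read 14.4, 6.55, 7.01, 6.16 and 8.30 there, none above background. Cd3d and Lck read 89.8 and 186, against 94.4 to 104 and 146 to 167 on the other P20 arrays. A probe inside the cluster not described as Ms4a (chr1:213557494-213557553) read 104 there, against 3.98, 4.25 and 5.55. Fcer1a read 24.4 and Kit 6.30 on that array, neither above background. The cause of these single high values was not tested. The Ms4a2 probe has 1 spot per array, so no second spot bears on the value.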

How the results depend on the processing

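The number of member genes over 2-fold higher and above background at P200 was 2 in the main setting and in each of the 19 alternatives. Ms4a4a's log2 difference was 4.52, and 4.45 to 4.63 with any 1 array left out, but 4.18 with normexp background correction and 4.27 with series matrix values. For Ms4a6bl, normexp gave 3.08, 3.13 and 2.45 for probes 1 to 3, the series matrix 3.58, 3.27 and 2.57, and the mean of the 3 probes 4.07. Neither of those 2 settings subtracts background as the processed signal does. No result reversed.

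Calls were less stable. Over all genes 1791 passed, with 1229 to 1704 when 1 array was left out, 1162 with scaling to the array median (740 higher and 422 lower, against 914 and 877) and 800 without the filter, which tested 36074 genes. Without the filter, the median of all differences was 0.10. The 2 IgE receptor and ITAM calls became 1 under the array median, the series matrix, the percentile over distinct probes (chosen after seeing the data), no filter, the filter on all 8 arrays and slide row, 0 under normexp, and 1 to 2 with an array left out (1 without P200 replicates 2, 3 or 4 or P20 replicates 1, 3 or 4). The 5 macrophage partner calls became 2 under the array median, the series matrix and slide row, 3 under normexp, 1 without the filter, and 2 to 4 with an array left out (2 or 3 without any array but P200 replicate 1). The 2 glucocorticoid and IL-4 calls became 1 under the array median and stayed at 2 with any array left out. The 2 neighbour calls became 0 without the filter, 1 with slide row and 1 to 2 with an array left out (1 without P200 replicate 3 or P20 replicates 1 or 3). The cause of these changes was not tested.

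Whether replicate numbers pair the arrays was not settled. Deviations of same-numbered arrays correlated at 0.03, 0.13, 0.00 and 0.28, and those of differently numbered arrays at -0.23 to 0.23. The series matrix numbers the P200 arrays otherwise than the scanner files used here, so these values cannot decide it. A replicate block gave 1493 calls over all genes, 1 for IgE receptor and ITAM, and 2 for macrophage partners.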
